A study of Mus musculus with 2 samples.

Results

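Lipid-associated macrophages are cells that load and break down lipid in injured or lipid-rich tissue, and 6 genes commonly used to recognise them were followed here: Spp1, Gpnmb, Trem2, Cd9, Cd63 and Apoe. The genes were taken as a given list, and all 6 were listed in both count tables, among 21745 genes common to them. They were measured by Drop-seq, a droplet method in which each captured mRNA molecule is marked with its cell's barcode and a molecular tag, so that distinct tags (UMIs) can be counted, in hearts of male C57BL6/J wild-type mice aged 8-10 weeks. MI is 1 heart taken 14 days after the left anterior descending coronary artery was tied off, and sham is a pool of 4 hearts taken 14 days after the same operation with the suture left loose. Each group was thus 1 library, no test between them was possible, no p-value was computed, and every interval covers counting error only.

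Spp1 encodes osteopontin, a secreted phosphoprotein that binds integrins and CD44. Trem2 is a lipid-sensing surface receptor of macrophages and microglia that signals through the adaptor Tyrobp, and Gpnmb is a transmembrane glycoprotein of lysosomes, melanosomes and the cell surface. Cd9 and Cd63 are tetraspanins, the former mainly at the cell surface and the latter in late endosomes and lysosomes, and both are carried on exosomes. Apoe is the apolipoprotein with which macrophages and other cells export cholesterol. In adipose tissue, atherosclerotic plaques and injured organs these genes are known as a macrophage programme in which Trem2 acts upstream of lipid uptake and lysosomal genes.

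On GRCm38, the build that mm10 denotes, all 6 are protein-coding genes of GENCODE. Spp1 lies at chr5:104435118-104441050 on the + strand, Gpnmb at chr6:49036546-49070929 (+), Trem2 at chr17:48346401-48354147 (+), Cd9 at chr6:125460266-125494791 (-), Cd63 at chr10:128900989-128912822 (+) and Apoe at chr7:19696109-19699188 (-). The span of Cd9 holds the antisense RNA Gm28809 and the processed transcript Gm26728 on the opposite strand, and Spp1 overlaps Gm42793 on its own strand. None of the sources used here says whether counting used the strand, so the counts of Cd9 are uncertain to that extent. Strand cannot separate Spp1 from Gm42793, and how reads in their overlap were counted is not given either.

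Because Spp1 and Gpnmb shared the largest excess of co-detection among the 6 genes, their RefSeq promoters on GRCm38.p6 are shown, from 250 bases before to 50 bases after the annotated start. Both run 5′ to 3′ on the + strand, at chr5:104434861-104435160 and chr6:49036268-49036567. Capitals mark matches to 6 motifs searched on both strands. They were the RUNX-type motif, spelled AACCACA, and the PU.1-type motif, spelled GAGGAAGT. The TATA box was searched as TATAAA, and the AP-1 motif as TGAGTCA. The M-box core was searched as CATGTG, and the CLEAR-type E-box as CACGTG.
Spp1: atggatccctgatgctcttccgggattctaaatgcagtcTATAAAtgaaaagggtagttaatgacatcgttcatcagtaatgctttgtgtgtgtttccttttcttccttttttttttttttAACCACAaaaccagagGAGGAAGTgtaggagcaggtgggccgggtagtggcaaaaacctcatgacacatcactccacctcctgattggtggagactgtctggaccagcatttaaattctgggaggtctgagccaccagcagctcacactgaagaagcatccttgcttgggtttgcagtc
Gpnmb: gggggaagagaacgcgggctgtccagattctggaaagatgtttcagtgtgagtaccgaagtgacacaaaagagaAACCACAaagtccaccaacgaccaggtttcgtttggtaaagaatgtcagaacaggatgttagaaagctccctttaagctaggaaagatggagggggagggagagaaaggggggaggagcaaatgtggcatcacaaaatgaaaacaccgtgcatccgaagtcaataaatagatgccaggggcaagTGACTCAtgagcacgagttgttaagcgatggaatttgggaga
Relative to the start, the Spp1 window held a match to the letters TATAAA at -211, the RUNX-type motif at -129 and the PU.1-type motif at -113. The Gpnmb window held the RUNX-type motif at -176 and the AP-1 motif as its reverse complement at 8. The RUNX-type motif was the only 1 of the 6 that both windows held, and 5.27% of 32851 RefSeq promoter windows of this length hold it on either strand. The other shares were 3.2% for the PU.1-type motif, 13.6% for the TATA box, 5.2% for the AP-1 motif, 14.2% for the M-box core and 7.15% for the E-box. The Cd9 window held the M-box core as its reverse complement at -38, and those of Trem2, Cd63 and Apoe matched none of the 6. The Cd63 window is at the RefSeq start, 8356 bases from the GENCODE start of the span given above. The matches are letters in a window and were not tested as binding sites.

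The MI table held 8555 barcodes with 33275336 UMIs (median 2466 per barcode) and the sham data held 6337 barcodes with 11307405 UMIs (median 1424), and the libraries shared 5 barcodes. After filtering, 8314 MI and 5963 sham cells remained. Cells were assigned by counting the distinct markers of a class with a UMI. This gave 3538 MI and 1410 sham macrophages, 88 and 7 monocytes, 45 and 6 dendritic cells, 2664 and 1617 fibroblasts, and 479 and 2173 endothelial cells. Macrophages of both libraries carried a median of 5 of 8 macrophage markers and 0 of every other lineage, and 210 MI and 18 sham macrophages stood at the minimum of 2 macrophage markers. Of the 88 MI monocytes, 44 stood at the minimum of 2 monocyte markers and 36 were 1 marker ahead of the next subset. They carried a median of 1 macrophage marker. Median UMIs per cell were 1767 and 1373.5 in MI and sham macrophages, but 5604.5 and 1561 in fibroblasts and 3495 and 1372 in endothelial cells. T/NK and B cells, 212 in MI (median 1239.5 UMIs) and 63 in sham (1269), served as lymphocytes that should lack most of these RNAs. Their level was taken as that of free RNA. In MI, 33 of 116 T/NK and 12 of 96 B cells held no myeloid or macrophage marker UMI. Whether the others are mixed cells was not tested. Levels are given as CPM, the UMIs of a gene per 1000000 UMIs of a class in a library, with exact Poisson 95% intervals.

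In macrophages, 5 of the 6 genes were at least 2-fold higher in MI than in sham and none was at least 2-fold lower. Of the 11766 genes with at least 20 UMIs over both macrophage sums, 9.94% were at least 2-fold higher and 11.8% at least 2-fold lower. The median log2 ratio of the 6 genes was 1.90, against -0.10 over all genes tested. Apoe was the gene that stayed under 2-fold.

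Spp1, the secreted ligand, was close to absent in sham macrophages, where 1410 cells gave 6 UMIs or 2.74 CPM (1.00-5.95). The MI macrophages gave 16566 UMIs or 2234 CPM (2200-2268). The log2 ratio was 9.67 (8.55-11.12), and its width comes from the 6 sham UMIs. With doublets kept it was 9.06, the only setting of 7 that moved it by over 1.5 times, and the others gave 9.49 to 10.16.

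Gpnmb gave 3 UMIs or 1.37 CPM (0.282-4.00) in sham macrophages and 2142 UMIs or 289 CPM (277-301) in MI macrophages. The log2 ratio was 7.72 (6.17-10.00). Trem2, the lipid receptor, was already present in sham macrophages at 108 CPM (94.7-123) and stood at 608 CPM (591-626) in MI. That is a 5.63-fold difference, with a log2 ratio of 2.49 (2.30-2.69).

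The tetraspanins differed less. Cd63 had 273 CPM (252-296) in sham and 673 CPM (655-692) in MI macrophages, a log2 ratio of 1.30 (1.18-1.43). Cd9 had 73.4 CPM (62.5-85.6) in sham and 163 CPM (154-172) in MI, a log2 ratio of 1.15 (0.91-1.40). With doublets kept, the Cd9 ratio was 0.82, which ends its 2-fold call and leaves 4 of 6 genes called. In sham, the macrophage level of Cd9 did not exceed that of lymphocytes, which gave 13 UMIs or 134 CPM (71.2-229), so it was not above the lymphocyte level there. Some B cells are known to express Cd9, and 8 of the 13 UMIs came from the 30 sham B cells.

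Apoe, the lipid carrier, was plentiful in macrophages of both libraries, at 13419 CPM (13266-13573) in sham and 23317 CPM (23207-23427) in MI. The difference was 1.74-fold, a log2 ratio of 0.80 (0.78-0.81). A macrophage held a median of 18 Apoe UMIs in sham and 38 in MI. The intervals of MI and sham macrophages did not overlap for any of the 6 genes.

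Markers of other lineages in the macrophage sums moved in different directions between the libraries. All 10 endothelial markers had a UMI in both, with summed levels of 40.3 CPM in MI and 166 CPM in sham. The 10 fibroblast markers summed to 197 and 140 CPM. Of the mural markers, 9 of 10 in MI (Vtn was at 0) and 10 of 10 in sham had a UMI, with 44.2 and 126 CPM. The T/NK list gave 74.0 CPM over 10 of 10 markers in MI and 16.9 CPM over 9 of 10 in sham, with Il2rb at 0. Il7r alone made up 61.8 of the 74.0 CPM and was found in 8.31% of MI macrophages, whereas each other T/NK marker was found in at most 0.283%. Mesothelial markers summed to 30.6 CPM (10 of 10) in MI and 7.75 CPM (7 of 10) in sham, and neutrophil markers to 101 CPM (9 of 9) and 41.0 CPM (6 of 9). The part of these cells in the macrophage ratios was not tested. The lymphocyte level was taken as that of free RNA. Over it, the level in MI macrophages was 31.1-fold for Spp1, 19.3-fold for Gpnmb, 33.8-fold for Trem2, 5.43-fold for Cd9, 6.81-fold for Cd63 and 23.3-fold for Apoe.

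**Figure D1:**
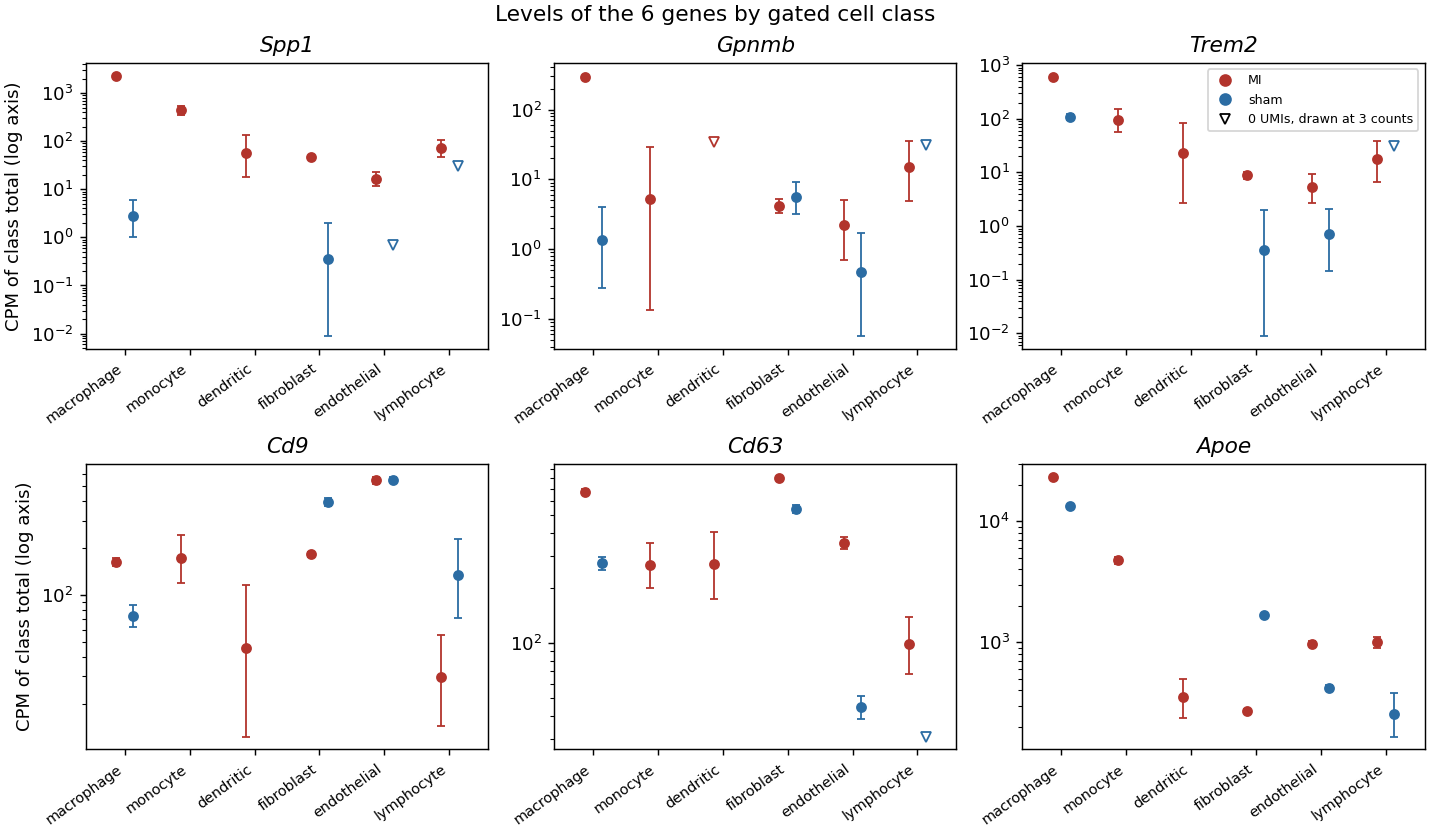
Level of each gene (CPM of the class total, log axis) by gated cell class, MI in red and sham in blue, 1 library each; points are class sums, bars exact Poisson 95% intervals, and open triangles mark 0 UMIs drawn at 3 counts. Spp1, Gpnmb, Trem2 and Apoe peak in MI macrophages, whereas Cd9 is highest in endothelial cells (549 CPM in sham, 543 CPM in MI) and Cd63 in MI fibroblasts (800 CPM).

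In the MI library, 4 of the 6 genes were highest in macrophages among the 5 classes. Spp1 there fell in order from macrophages (2234 CPM) to monocytes (437 CPM, 348-542), dendritic cells (56.7 CPM, 18.4-132), fibroblasts (46.8 CPM, 43.7-50.1) and endothelial cells (16.6 CPM, 11.8-22.8). Dendritic cells and fibroblasts overlapped in that order. Lymphocytes of the same library gave 71.9 CPM (46.1-107), so of the 5 classes macrophages and monocytes stood above the lymphocyte level on the CPM scale. Per cell, the deeper MI fibroblasts held 0.308 Spp1 UMIs, against 0.113 in lymphocytes and 4.68 in macrophages. Macrophages exceeded monocytes by 2.35 (2.04-2.68) on the log2 scale. The monocyte level rested on 83 UMIs in 18 of 88 cells, many of them near the edge of the gate.

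Gpnmb was highest in MI macrophages, which exceeded MI monocytes by 5.78 (3.30-11.08) on the log2 scale. The next levels were 5.65 CPM (3.23-9.17) in sham fibroblasts, 5.26 CPM in MI monocytes from 1 UMI, 4.16 CPM (3.26-5.23) in MI fibroblasts and 2.19 CPM (0.710-5.10) in MI endothelial cells, and all of these overlapped the next in order. MI dendritic cells gave 0 UMIs, with a floor of 34.0 CPM at 3 counts. Sham macrophages were lower in Gpnmb than sham fibroblasts, by 4.13-fold, from 3 and 16 UMIs, with a log2 ratio of -2.05 (-4.47 to -0.24). MI lymphocytes held 15.0 CPM (4.87-35.0) from 5 UMIs.

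Trem2 was highest in MI macrophages. Sham macrophages (108 CPM) came next and overlapped MI monocytes (94.7 CPM, 56.2-150). MI fibroblasts (8.78 CPM, 7.45-10.3) and MI endothelial cells (5.25 CPM, 2.71-9.17) were not above MI lymphocytes (18.0 CPM, 6.60-39.1) on the CPM scale, nor could MI dendritic cells be told from them with 2 UMIs (22.7 CPM). Sham fibroblasts had 1 Trem2 UMI and sham endothelial cells 3.

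Apoe stood at 4763 CPM (4458-5084) in MI monocytes, 2.29 (2.20-2.39) below MI macrophages on the log2 scale. MI lymphocytes held 1001 CPM (897-1115) of Apoe, and MI endothelial cells (976 CPM), dendritic cells (352 CPM) and fibroblasts (272 CPM) did not exceed that level. Per cell the reading differed for the deeper endothelial cells, with 4.66 Apoe UMIs against 1.58 in lymphocytes and 1.79 in fibroblasts, and which scale fits free RNA was not tested. Sham lymphocytes held 257 CPM (166-379). Sham fibroblasts exceeded them 6.54-fold, at 1681 CPM (1633-1729), and sham endothelial cells 1.63-fold, at 420 CPM (400-440). On the CPM scale, Apoe was thus above the lymphocyte level in fibroblasts of sham but not of MI.

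The label macrophage gene did not hold for the tetraspanins in these libraries. Cd9 was highest in endothelial cells, at 549 CPM (527-572) in sham and 543 CPM (513-574) in MI, which overlapped. Sham endothelial cells exceeded sham macrophages 7.49-fold and sham fibroblasts did so 5.39-fold. MI fibroblasts (183 CPM), monocytes (174 CPM, 120-244) and macrophages (163 CPM) had near levels, and monocytes overlapped both others. Cd63 was highest in MI fibroblasts, at 800 CPM (787-813), followed by MI macrophages (673 CPM), sham fibroblasts (545 CPM, 518-572) and MI endothelial cells (353 CPM, 329-378). Sham macrophages, MI dendritic cells (272 CPM, 174-405) and MI monocytes (268 CPM, 200-353) overlapped in Cd63, and sham endothelial cells were lowest at 44.6 CPM (38.5-51.4).

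The 7 sham monocytes and 6 sham dendritic cells were too few for ratios. Those monocytes gave 37 Apoe UMIs, 1 Trem2 UMI and none of the other 4 genes, and those dendritic cells gave 4 Cd9 UMIs and none of the other 5. The 363 MI myeloid cells that met no subset rule lay between MI macrophages and lymphocytes in 5 genes. They had 481 CPM of Spp1, 35.4 CPM of Gpnmb, 156 CPM of Trem2, 271 CPM of Cd63 and 6219 CPM of Apoe. Their Gpnmb rested on 20 UMIs, and its log2 ratio over lymphocytes had an interval that held 0 (1.24, -0.22 to 3.01). Cd9 stood at 189 CPM (155-229) in them, with an interval that overlapped that of macrophages.

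In fibroblasts, 2 of the 6 genes were at least 2-fold higher in MI and 2 at least 2-fold lower. The background there was 13.3% of 13609 genes higher and 20.2% lower. The higher ones were Spp1 (46.8 against 0.353 CPM, log2 ratio 7.05, 4.57-12.36) and Trem2 (8.78 against 0.353 CPM, 4.64, 2.14-9.95), each against 1 sham UMI and neither above the MI lymphocyte level in CPM. Per cell, MI fibroblasts held 0.0578 Trem2 UMIs, against 0.0283 in MI lymphocytes. The Trem2 value fell to 2.82 with doublets kept and to a bound of at least 2.12 with gating on thinned cells. Gpnmb did not differ beyond counting error (4.16 against 5.65 CPM, -0.44, -1.24 to 0.44).

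Apoe was 6.18-fold lower in MI fibroblasts, with 272 CPM (264-280) against 1681 CPM and a log2 ratio of -2.63 (-2.69 to -2.57). Gating on thinned cells gave -1.93, from 381 MI fibroblasts. Cd9 was 2.16-fold lower, with 183 against 395 CPM and a log2 ratio of -1.11 (-1.21 to -1.01), and median-of-ratios scaling gave -0.89, which ends the 2-fold call. Cd63 was higher by 0.55 (0.48-0.63). The summed level of the 10 myeloid markers was 143 CPM in MI and 88.9 CPM in sham fibroblasts, and that of the 8 macrophage markers 70.5 and 80.1 CPM, with a UMI for each marker. Mesothelial markers summed to 125 CPM (10 of 10 with a UMI) in MI and 7.41 CPM (9 of 10, Krt18 at 0) in sham fibroblasts, and endothelial markers to 102 and 212 CPM (10 of 10 each). B cell markers gave 30.4 CPM (9 of 9) and 4.59 CPM (7 of 9, Fcmr and Ly6d at 0), and neutrophil markers 31.9 CPM (8 of 9, Retnlg at 0) and 6.00 CPM (6 of 9, Csf3r, Mmp9 and Camp at 0). Their part in the Apoe and Cd9 differences was not tested.

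Fibroblasts without a UMI of any myeloid or macrophage marker were also read alone, with monocyte and dendritic markers allowed. In the 932 of 2664 MI fibroblasts of this kind, Spp1 gave 216 UMIs or 43.0 CPM (37.4-49.1), near the level of all MI fibroblasts. They lay in 94 cells, with up to 40 UMIs in 1 cell. Trem2 gave 40 UMIs in 34 of these MI fibroblasts, or 7.96 CPM (5.68-10.8). Apoe stood at 238 CPM (224-252) in the same MI fibroblasts and at 1696 CPM (1641-1754) in the 1224 sham fibroblasts chosen in the same way. The difference was as large in these subsets, and the part of free RNA in it was not tested.

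In endothelial cells, 3 of the 4 genes with at least 20 UMIs were at least 2-fold higher in MI and none lower, against 11.5% and 14.7% of 11881 genes. Cd63 was 7.91-fold higher, with 353 against 44.6 CPM and a log2 ratio of 2.98 (2.75-3.22), and gating on thinned cells gave 3.68. Apoe stood at 976 (935-1017) against 420 CPM, a log2 ratio of 1.22 (1.13-1.31), and fell under 2-fold with doublets kept (0.98) and with the stricter lineage rule (0.88). Over lymphocytes of the same library, the log2 ratio of endothelial Apoe in CPM was -0.04 (-0.20 to 0.13) in MI and 0.71 (0.14-1.34) in sham. Per cell, MI endothelial cells held 4.66 Apoe UMIs against 1.58 in MI lymphocytes. Spp1 had 38 UMIs against 0, a log2 ratio of at least 4.55 at a floor of 3 counts over the class, and lay below the lymphocyte level in CPM. Cd9 did not differ beyond counting error (-0.02, -0.12 to 0.08). Gpnmb and Trem2 had 7 and 15 UMIs over both libraries and were not compared.

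Other markers moved in these endothelial sums. The 10 fibroblast markers, each with a UMI, summed to 1068 CPM in MI and 202 CPM in sham, and the 10 myeloid markers to 216 and 91.5 CPM. Neutrophil markers summed to 229 CPM (8 of 9, Trem1 at 0) in MI and 3.54 CPM (3 of 9, with S100a8 and S100a9 among those at 0) in sham, and mural markers to 443 and 1514 CPM (10 of 10 each). The part of these RNAs was not tested. Endothelial cells without a myeloid or macrophage marker UMI were 189 in MI and 1478 in sham, with monocyte and dendritic markers allowed. In them, Cd63 stood at 363 CPM in MI and 42.2 CPM in sham, and Apoe at 915 and 463 CPM.

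**Figure D2:**
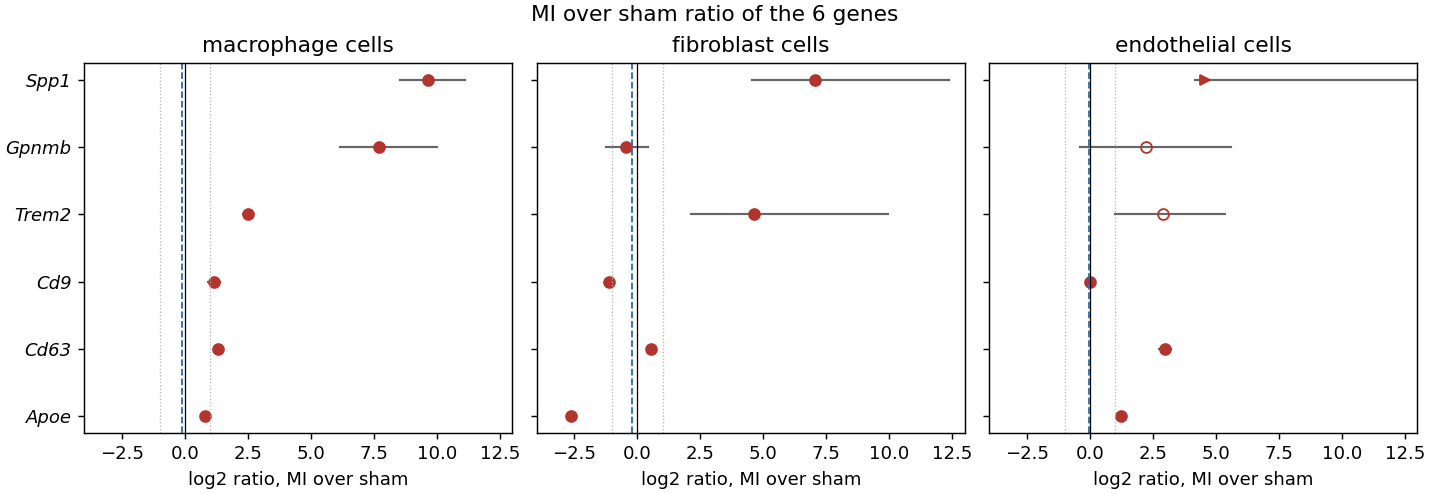
Log2 ratio of MI over sham (x axis) for each gene in macrophages, fibroblasts and endothelial cells; bars are exact conditional binomial 95% intervals, open circles have under 20 UMIs, the triangle is a lower bound, dotted lines mark 2-fold and the dashed line is the median over all genes tested. In macrophages all 6 lie to the right of 0, from 0.80 for Apoe to 9.67 for Spp1, and in fibroblasts Apoe (-2.63) and Cd9 (-1.11) lie to the left.

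Within the MI macrophages the genes were spread unevenly over cells. A macrophage held a median of 1 Spp1 UMI, and single cells reached 182. The 353 macrophages with most Spp1 held 61.2% of its UMIs, and without them the class still had 1022 CPM. For Gpnmb, 353 cells held 82.7% of the UMIs, with a median of 0 and a maximum of 67, and the rest of the class had 58.3 CPM. The same number of cells held 37.6% of Trem2, 39.5% of Cd63, 67.7% of Cd9 and 28.9% of Apoe UMIs.

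To compare shares of cells between libraries, each cell was thinned to 500 UMIs, and no cell was shallower than that. Spp1 was then detected in 1361 of 3538 MI macrophages, 38.5% (36.9-40.1, exact Clopper-Pearson 95%), and in 2 of 1410 sham macrophages, 0.142%. Gpnmb was found in 273 MI macrophages, 7.72% (6.86-8.65), and in none of the sham, which allows a share of up to 0.213% at 3 counts of the total (the exact upper limit is 0.261%). Trem2 was found in 25.6% (24.1-27.0) and 5.82% (4.65-7.17), in MI and sham respectively. Cd63 was found in 26.7% (25.3-28.2) and 12.8% (11.1-14.6), Cd9 in 6.30% (5.52-7.15) and 3.55% (2.64-4.65), and Apoe in 97.6% (97.0-98.1) and 92.3% (90.8-93.7).

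The share was higher in MI macrophages for each of the 6, and the intervals of the libraries did not overlap. Among thinned MI lymphocytes the shares were 4.25% for Spp1, 0.472% for Gpnmb and for Trem2, 0.943% for Cd9, 3.30% for Cd63 and 32.5% for Apoe, all below the MI macrophages. Among sham lymphocytes Cd9 was found in 3.17% and Apoe in 9.52%, and the other 4 genes in none of 63, which allows up to 4.76% at 3 counts (exact upper limit 5.69%). The Cd9 share of sham macrophages was therefore not above that of lymphocytes. Before thinning, the shares of MI macrophages were 58.3% for Spp1, 19.8% for Gpnmb, 60.6% for Trem2, 21.0% for Cd9, 60.1% for Cd63 and 99.5% for Apoe, against 0.426%, 0.213%, 14.1%, 9.01%, 30.7% and 96.2% in sham.

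Co-detection was read in the thinned cells by setting the number of MI macrophages with both genes beside the number that the product of the 2 shares gives. Spp1 and Gpnmb were found together in 195 cells where the product gives 105, a ratio of 1.86 and an odds ratio of 4.50. Of the cells with Gpnmb, 71.4% also had Spp1, against 35.7% of those without. Of the cells with Spp1, 14.3% also had Gpnmb, against 3.58% of those without. Unthinned, 607 cells had both where the product gives 408.

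Gpnmb exceeded the product with the other genes too. It was found with Trem2 in 106 cells (ratio 1.52), with Cd63 in 109 (1.49) and with Cd9 in 28 (1.63). Spp1 with Cd9 gave 113 cells (1.32), with Cd63 460 (1.27) and with Trem2 406 (1.17). Trem2 with Cd63 gave 275 cells (1.14). Cd9 with Cd63 (64 cells, 1.07) and Trem2 with Cd9 (56 cells, 0.98) stood near the product. The 5 pairs with Apoe lay between 0.98 and 1.02, which its presence in nearly every macrophage nearly fixes.

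**Figure D3:**
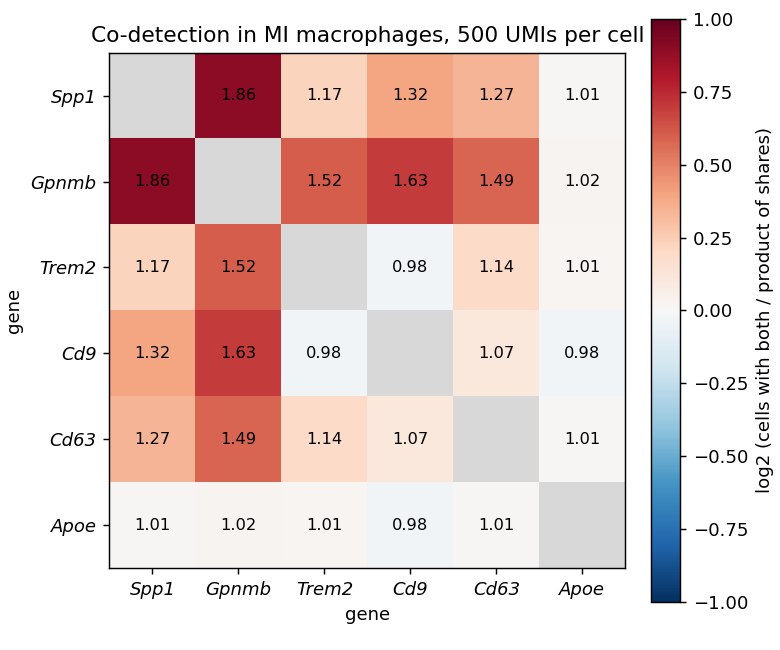
Number of MI macrophages (3538 cells thinned to 500 UMIs) with UMIs of both genes divided by the number that the product of the 2 shares gives, for each pair of the 6 genes; colour is the log2 of the printed ratio. The highest ratio is Spp1 with Gpnmb (1.86), and the row of Gpnmb is above 1.4 with every gene other than Apoe (1.02).

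The triple of Spp1, Gpnmb and Trem2 was found in 79 MI macrophages, 2.23%, where the product of the 3 shares gives 0.758%. Counting all 6 genes, 312 MI macrophages had at least 4, which is 8.82% (7.90-9.80) where independent detection gives 5.30%. Before thinning the excess at this cutoff was smaller, with 41.2% (39.6-42.9) of MI macrophages against 38.1% from the product. It depended on the cutoff, since exactly 4 genes were found in 22.3% of unthinned MI macrophages, below the 28.5% from the product. Exactly 5 were found in 14.5%, above the product of 8.64%, and all 6 in 4.35%, above the product of 0.876%. All 6 were found in 3 thinned cells and none in 46. In sham, 0 of 1410 macrophages had at least 4, which allows up to 0.213% at 3 counts of the total, and 73.4% had exactly 1. Before thinning, 10 sham macrophages had at least 4, 0.709% where the product gives 0.420%. Of the pairs in thinned sham cells, Trem2 with Cd63 was found in 10 cells (product 10.5) and Trem2 with Cd9 in 2 (product 2.91). Cd9 with Cd63 gave 2 cells where the product gives 6.38, but 44 cells against 39.0 before thinning, so no direction is read from it. Unthinned, Trem2 with Cd63 gave 72 cells (product 61.1) and Trem2 with Cd9 22 (product 17.9).

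**Figure D4:**
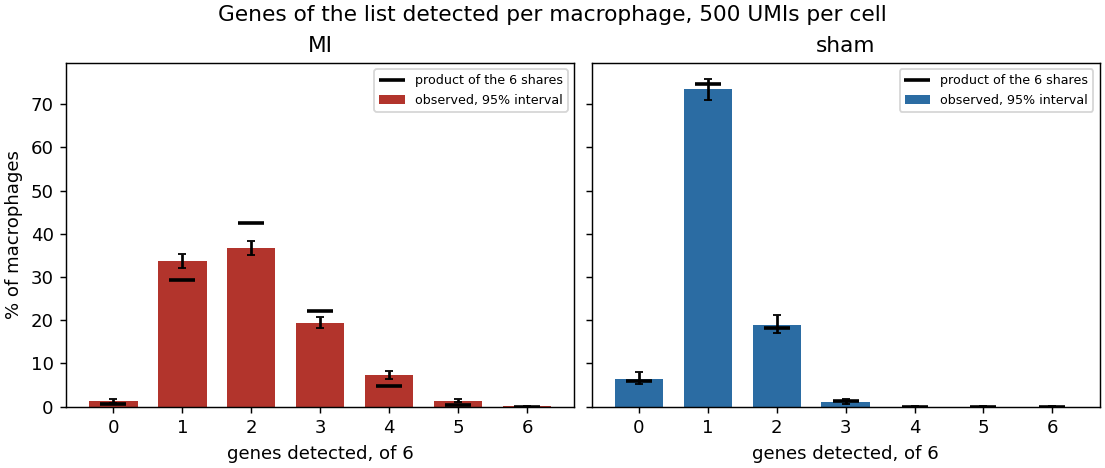
Percent of macrophages (y axis, bars from 0) by the number of the 6 genes detected after thinning to 500 UMIs, MI left and sham right, with exact 95% intervals; black dashes show what the product of the 6 shares gives. In MI 36.7% of cells had 2 genes and 8.82% at least 4, and in sham 73.4% had 1 and none had 4.

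Deeper MI macrophages had more Spp1 and Gpnmb also as CPM. In 3 bins of 1177, 1181 and 1180 cells by total UMIs, Spp1 stood at 1589, 1832 and 2659 CPM and Gpnmb at 134, 212 and 380 CPM, from shallow to deep. Cd9 (122, 135 and 191 CPM) and Cd63 (614, 662 and 699 CPM) had the same order. Trem2 (576, 625 and 610 CPM) and Apoe (23652, 25232 and 22196 CPM) did not. Within the bins the co-detection ratio of Spp1 with Gpnmb was 1.87, 1.94 and 1.66, so the excess was present at each depth. That of Spp1 with Trem2 was 1.17, 1.16 and 1.17.

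Thinned MI macrophages were next split by a UMI of a gene that is not 1 of the 6, to see in which macrophages they lie. In the 1165 cells with MHC class II (H2-Aa, H2-Ab1 or H2-Eb1, which present antigen), Spp1 was 709 CPM against 2646 CPM in the 2373 without, a log2 ratio of -1.90 (-2.05 to -1.75). Gpnmb was lower in them by a log2 ratio of -2.44 (-3.01 to -1.92) and Cd63 by -0.95 (-1.16 to -0.74). Trem2 (-0.44), Cd9 (-0.44) and Apoe (-0.45) were lower too, by less.

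The 952 cells with Ccr2, the chemokine receptor of recruited monocytes, gave -1.81 (-1.98 to -1.65) for Spp1, -2.18 (-2.78 to -1.63) for Gpnmb, -0.85 for Cd63, -0.58 for Cd9, -0.51 for Apoe and -0.33 for Trem2. The 585 cells with Fabp5, a fatty acid carrier, had more Gpnmb, by 2.64 (2.34-2.93), and more Spp1, by 1.64 (1.54-1.74). Cd63 (0.64), Trem2 (0.46) and Apoe (0.31) were higher there as well, and the Cd9 interval held 0 (-0.01 to 0.90).

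Arg1, the arginase of wound macrophages, gave intervals of Spp1 and Gpnmb that did not overlap. In the 288 cells with it, Spp1 was higher by 1.02 (0.89-1.15), whereas the interval of Gpnmb held 0 (0.17, -0.37 to 0.67). In the 352 cells with the cycling genes Mki67 or Top2a, Gpnmb was lower by -1.18 (-1.95 to -0.49) and Apoe by -0.73 (-0.79 to -0.67), and Spp1 was close to level (0.16, 0.00-0.31). The 74 cells with Lyve1, a marker of resident macrophages, had less Spp1, by -1.65 (-2.30 to -1.08), and less Apoe, by -0.75. The 87 cells with Folr2, another such marker, did not: the Spp1 interval held 0 (0.15, -0.15 to 0.45), as did that of Gpnmb (0.58, -0.31 to 1.34), and Apoe was higher by 0.11 (0.02-0.19). Timd4, a further resident marker, was found in 5 MI macrophages, too few to read. Apoe was at -2.01 (-2.85 to -1.29) in them, from 15 UMIs, and that interval does not cover the spread between cells.

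In sham macrophages the splits touched other genes, since Spp1 and Gpnmb had next to no UMIs. The 103 cells with Ccr2 had less Apoe, 4544 against 15013 CPM and -1.72 (-1.92 to -1.54), and less Cd63, -2.46 (-4.75 to -0.89) from 3 UMIs. Cd9 was higher in them, 1.53 (0.37-2.54), and in the 863 cells with MHC class II, 1.48 (0.47-2.64), from 10 and 44 thinned UMIs. These splits rest on cells of 1 library each.

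**Figure D5:**
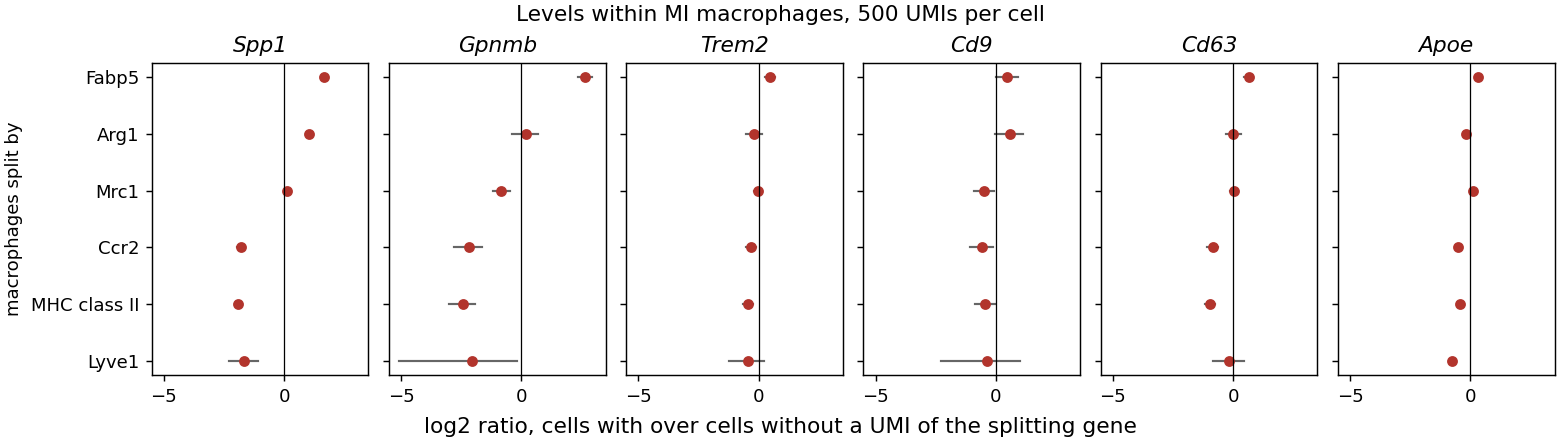
Log2 ratio of each gene's level in MI macrophages with over without a UMI of the splitting gene (rows), after thinning to 500 UMIs; bars are exact 95% intervals for counting error. Spp1 and Gpnmb lie right of 0 for Fabp5 (1.64 and 2.64) and left of 0 for MHC class II (-1.90 and -2.44) and Ccr2. The points of Trem2, Cd9, Cd63 and Apoe stay within 1 of 0 in the 6 splits drawn.

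Sorting the thinned MI macrophages by Spp1 itself, 1361 with and 2177 without, ranked Gpnmb highest of 1250 genes, at 428 against 88.2 CPM and a log2 ratio of 2.28 (1.94-2.63). Next came Fabp5 (1.63), Lpl (1.53), which is lipoprotein lipase, the lysosomal proteases Ctsl (1.25) and Ctsd (1.22), and Syngr1 (1.23). Pld3 (1.11), Hmox1 (1.06), the haem-degrading enzyme, Osbpl8 (1.03) and Clec4d (1.03) completed the 10. Of the other members, Cd9 (0.76), Cd63 (0.64), Trem2 (0.46) and Apoe (0.33) were all higher in cells with Spp1. The lowest genes, looked up after the values were seen, were H2-Eb1 (-2.74), H2-Aa (-2.64), Cd74 (-2.61), H2-Ab1 (-2.49) and the cytokine Il1b (-2.40). Sorting by Gpnmb instead gave Spp1 a ratio of 1.75 (1.63-1.86), at rank 4 of 1250 after Lpl (2.22), Fabp5 (2.18) and Ctsl (2.09).

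Lists of related genes were set beside the 6 in macrophages, by size alone, and each count is to be read against the shares over all genes tested, 9.94% at least 2-fold higher and 11.8% lower. Of 15 lipid-handling and lysosomal genes known to accompany such macrophages, 7 were at least 2-fold higher in MI and 2 lower, with a median of 0.97 against -0.10 over all genes. Fabp5 (4.90) and Ctsd (3.26) were highest, and the fatty acid genes Fabp4 (-1.97) and Cd36 (-1.93) lowest. Endothelial markers in the same macrophage sums gave 40.3 CPM in MI and 166 CPM in sham. The part of endothelial RNA in the Fabp4 and Cd36 values was not tested. Of 11 apolipoprotein and cholesterol efflux genes tested, 3 were higher and 1 lower (median 0.85), led by Apoc2 (4.77) and Nr1h3 (1.41), which encodes LXR alpha, and with Pltp (-1.27) and Nr1h2 (-0.77) lowest.

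Of 9 tested Trem2 partners and relatives, 4 were higher and none lower (median 0.31). Treml2 and Trem1 had log2 ratios of at least 3.75 and 3.20, against 0 sham UMIs, and the lowest were the kinase Syk (-0.70) and Cd33 (-0.37). Tyrobp (0.31) and Trem1 also served as gate markers, so their values are not free of the gate. Of 8 tested osteopontin receptors, 2 were higher and 2 lower (median 0.30), with the integrin chains Itgav (1.14) and Itga8 (1.10, -0.41 to 3.07 from 29 and 4 UMIs, which holds 0) highest and Itga9 (-1.55) and Itga5 (-1.01) lowest.

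Of 12 other tetraspanins none was at least 2-fold higher in MI macrophages and 5 were lower, with a median of -0.45. Tspan4 (0.51) and Tspan31 (0.30) were highest, and Tspan7 (-3.14) and Tspan15 (-2.86) lowest. Of 12 MITF/TFE factors and lysosomal targets, 2 were higher and 1 lower (median 0.25), counts near the background. The higher ones were the osteoclast-type genes Ctsk (4.70) and Atp6v0d2 (3.75), and the lowest were Tfe3 (-1.13) and Mcoln1 (-0.78).

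Genes with a like pattern were sought over 18 profiles, the classes with at least 20 cells of both libraries, by the Pearson correlation of log2(CPM + 1) among 10452 genes. The profiles share their 2 libraries and depths, so the values are descriptions. Spp1 was nearest to Slc12a9 (0.87), Cox4i1 (0.84) and Syngr1 (0.83), and Gpnmb to the scavenger receptor Marco (0.92), Clec4d (0.83) and Spp1 (0.78). Trem2 was nearest to Vamp8 (0.90), the lysosomal cholesterol transporter Npc2 (0.89) and Cxcl2 (0.89), and Apoe to Cd300lh (0.90), Emr1 (0.89), the F4/80 gene, which is a gate marker, and Aoah (0.88). Cd9 was nearest to Mbnl2 (0.85), Nxpe4 (0.79) and Ywhab (0.79), and Cd63 to Sumf1 (0.95), Tfg (0.94) and Pcbd2 (0.94). Among the 6 themselves, Spp1, Gpnmb, Trem2 and Apoe correlated at 0.53 to 0.78 with each other, Cd63 at 0.32 to 0.50 with those 4, and Cd9 at -0.26 to 0.11 with the other 5.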

How the data were processed

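Single cells of 1 MI and 1 sham library were measured. Each library was deposited as 1 table of unnormalized UMI counts, genes by cell barcodes. Per the labels' protocols, hearts were perfused, fixed and embedded, and Drop-seq libraries were amplified with Nextera XT. The submitters' processing notes name mm10 and Seurat. Not given in the sources used here are the suspension of the cells, the aligner, the counter and the annotation. Every deposited barcode had at least 500 genes, so the tables had been filtered, and 317 MI and 671 sham barcodes end in N and were kept.

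A cell needed at least 200 genes, which every barcode had, and could have at most 25% mitochondrial UMIs. The mitochondrial limit removed 114 MI and 34 sham barcodes. Scrublet (scanpy 1.11.5) then removed 127 MI (1.50%) and 340 sham (5.39%) doublets. A cell took the lineage with most distinct markers, out of 8 lists of 10, needing at least 3 (2 for T/NK and B) and more than any other lineage. Myeloid cells were split by 3 lists of 8 markers, needing at least 2 and more than the other subsets. Of 104 markers, 102 were in both tables. None of the 6 genes is a marker. The members, marker lists and pathway lists were chosen with earlier results of these data known.

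UMIs were summed per class. Log2 ratios of CPM have exact conditional binomial 95% intervals, a sum of 0 was set to 3 counts over the class as a bound, and called means at least 2-fold with at least 20 UMIs over both sums. Named genes were all members, the 2 highest and 2 lowest of each pathway list, the 3 nearest profiles per member and the 10 genes highest in cells with Spp1, the last 2 among genes with at least 200 UMIs and without mitochondrial, ribosomal protein, Gm and Rik genes. The ratio step was tested on simulated data. Coordinates are GENCODE vM21 on GRCm38. Python 3.11.15, numpy 2.4.6, scipy 1.17.1, pandas 2.3.3 and matplotlib 3.10.9 were used. The alternatives tried were other scaling, gates, filters, UMI minimums and thinning.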

Additional observations from a re-analysis of the deposited data

How the results depend on the processing

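With 1 library per group, neither animals nor library preparations were replicated, condition and library cannot be told apart, and sham levels of Spp1 and Gpnmb in macrophages rest on 6 and 3 UMIs. No paired analysis was possible because each group has 1 sample and no replicate number. In macrophages no member changed direction under 7 alternatives. The log2 ratio of Apoe (0.80) was 0.90 with median-of-ratios scaling, 0.93 with gating on thinned cells, 0.82 with the stricter lineage rule, 0.76 with all myeloid cells that are neither monocyte nor dendritic, 0.82 with at most 10% mitochondrial UMIs and 0.77 without barcodes ending in N, always under 2-fold. That of Cd9 (1.15) was 0.82 with doublets kept, which left 4 of 6 members called. The share of genes at least 2-fold lower (11.8%) was 7.41% with at least 100 UMIs and 31.7% with at least 1 UMI. Median-of-ratios scaling shifted all log2 ratios by 0.10 in macrophages, 0.23 in fibroblasts and 0.04 in endothelial cells. Unthinned shares of MI macrophages were 58.3% for Spp1, 19.8% for Gpnmb, 60.6% for Trem2, 21.0% for Cd9, 60.1% for Cd63 and 99.5% for Apoe. The wider macrophage gate gave 36.2% for Spp1, 24.0% for Trem2 and 94.9% for Apoe, and another random seed of the thinning 8.68% for Gpnmb. The co-detection ratio of Spp1 with Gpnmb ranged from 1.49 to 1.95 over 5 alternatives, and that of Trem2 with Cd9 from 0.94 to 1.18, on both sides of 1.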

Other observations

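Trem2 was also found in mesothelial cells, the epithelial lining of the heart, gated on 10 markers such as Wt1 and Msln. The 163 MI mesothelial cells gave 68 Trem2 UMIs or 56.8 CPM (44.1-72.0), and the 80 sham mesothelial cells gave 7 UMIs or 35.8 CPM (14.4-73.8). In MI this exceeded lymphocytes of the same library (18.0 CPM) 3.16-fold, with a log2 ratio of 1.66 (0.46-3.15), while Spp1 (10.9 CPM) and Gpnmb (2.50 CPM) of the same cells lay below the lymphocyte level in CPM. In the 58 MI mesothelial cells without a myeloid or macrophage marker UMI, Trem2 gave 25 UMIs in 18 cells, 83.0 CPM (53.7-123). In the 53 such sham cells it gave 4 UMIs, 39.3 CPM (10.7-101). The class was looked at after its values were seen, its median depth was 6035 UMIs in MI and 1979 in sham, and after thinning only 4 of 163 MI cells held a Trem2 UMI, 2.45% (0.67-6.16).

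Mural cells, which wrap blood vessels, were rich in Cd63, at 722 CPM (674-772) in 157 MI cells, below the 800 CPM of MI fibroblasts. Their Trem2 (4 UMIs) and Gpnmb (1 UMI) were below the lymphocyte level in CPM.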
